A study of Mus musculus with 2 samples.

Results

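The solute carriers of ions, metals and nucleotide sugars were examined in the embryonic mouse lens. They were taken as every probe whose platform gene symbol belonged to the Slc4, Slc5, Slc8, Slc9, Slc12, Slc16, Slc20, Slc24, Slc26, Slc30, Slc39 or Slc40 family, or to the Slc35a branch of the Slc35 family. The rule used symbols only and no measured value. It found 101 genes with 200 probes, out of 19057 named genes on the array. The genes were split by family number into 8 substrate classes with 98 transporters. The other 3 symbols, Slc9a3r1, Slc9a3r2 and Slc4a1ap, carry a carrier's name but belong to scaffold or adapter proteins, and they were kept apart from the classes.

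Total RNA came from lens fibers and from lens epithelium, both wild type and both at E12.5, and was labelled with biotin for Illumina expression arrays. There was 1 array of each tissue, so no difference has a replicate check, an SD or a p-value. The sources used here name neither the strain nor the number of pooled embryos, nor how the tissues were separated. In such bulk samples, fewer cells of a type and less RNA per cell cannot be told apart.

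Solute carriers move small molecules across membranes. The mature lens has no blood supply, so its cells depend on such proteins for nutrient entry, for waste and acid removal and for the ion balance that sets cell volume. Epithelial cells at the front of the lens divide, and fiber cells behind them elongate and later lose their organelles. Zinc carriers of the Slc30 family move zinc out of the cytosol, those of the Slc39 family move it in, and Slc35a proteins bring nucleotide sugars into the Golgi for glycosylation.

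Intensities below are background-subtracted by the authors and then quantile normalized, and a gene is read from its brightest probe. A gene counted as measured on an array when its intensity lay above a floor, the 95th percentile of 1580 probes for chemosensory receptors (olfactory, vomeronasal, trace amine) and for hair keratin-associated proteins, all taken here as silent in lens. The floor was 32.1 on the fibers array and 44.6 on the epithelium array. All log2 ratios are fibers over epithelium. A gene measured in fibers alone or in epithelium alone was set against the other floor, which gives a lower bound on its fold, written "at least". Where that bound lay under 1, no direction was read.

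The arrays carried the markers of their labels. Of 7 lens fiber markers with a probe, 6 were at least 2-fold higher in fibers, among them Crybb1, a beta crystallin, at 3389 in fibers and 183 in epithelium. The fiber connexin Gja3 was below both floors. Other fiber markers gave signal on the epithelium array too, where Mip read 3206.5, Cryaa 276 and Crygc 207, all above its floor. In fibers these read 19878, 3183 and 2788.5. Lim2 and Bfsp2 were below the epithelium floor. The source of the fiber marker signal in epithelium was not tested. Of 5 epithelium markers, 4 passed 2-fold toward epithelium, among them Cdh1, E-cadherin, at 164 in fibers and 854.5 in epithelium, while Foxe3 was below both floors. Over 12 measured housekeeping genes the median log2 value was 1.42, which bears on every level difference below. It pools 6 ratios with 6 bounds from genes measured in fibers alone, and the ratios by themselves had a median of 1.25. The scaling to housekeeping genes used below takes the pooled 1.42.

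Most of the solute carriers gave little signal. Of the 101 genes, 12 were measured in both tissues, 11 in fibers alone, 8 in epithelium alone and 70 in neither, so 31 were measured (30.7%, against 33.9% of all named genes). The nucleotide-sugar class had 3 of 5 genes measured, the sodium-calcium exchangers 4 of 8, the phosphate transporters 1 of 2 and the cation-chloride cotransporters 3 of 8. The zinc, manganese and iron class had 7 of 24, the acid-base and anion class 7 of 25, the monocarboxylate class 3 of 13 and the sodium-coupled Slc5 class 2 of 13.

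**Figure D1:**
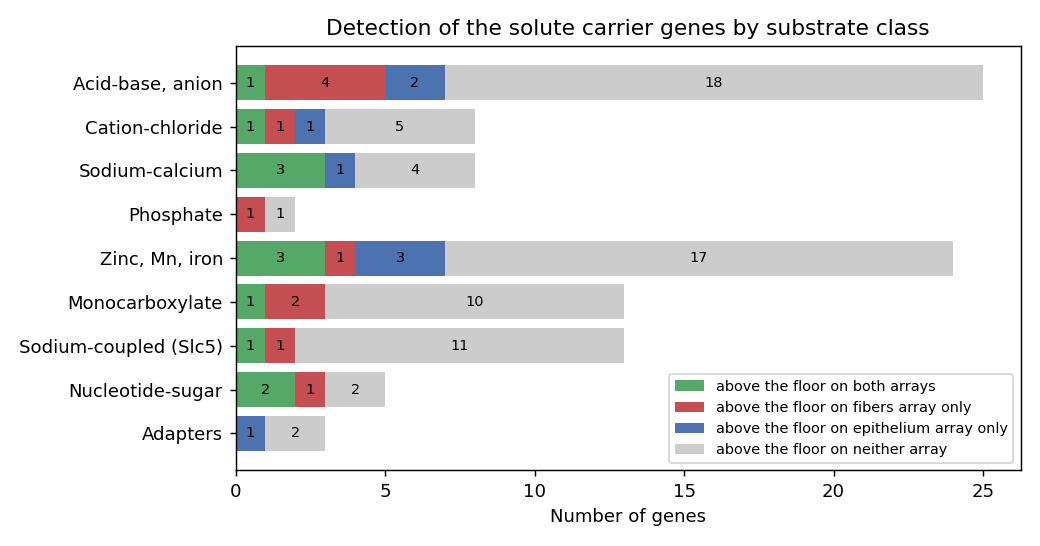
Number of genes (x axis) in each substrate class and among the adapters (y axis), split by whether the brightest probe exceeded the floor in both tissues, in fibers alone, in epithelium alone or in neither. The part above neither floor makes up 18 of 25 acid-base and anion genes and 17 of 24 metal genes, while 3 of 5 nucleotide-sugar genes were measured.

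Of the 31 measured genes, 1 passed 2-fold toward fibers (3.23%) and 8 toward epithelium (25.8%). Over all 6451 measured genes these shares were 15.5% in fibers and 18.5% in epithelium. Among 121 measured genes of the silent list they were 4.96% in fibers and 25.6% in epithelium, close to the split of the solute carriers. The floor was set from the probes of this list. These 121 of its 1308 genes (9.25%) are therefore the part that passed a floor set from the list itself. The likeness of the 2 splits thus cannot tell whether the solute carrier calls are noise. The calls in favour of epithelium comprised 2 ratios from both arrays and 6 bounds, and the call in favour of fibers was 1 bound. With no floor and an offset of 50 added to each intensity, which gives all 101 genes a ratio, 2 passed 2-fold toward fibers (1.98%) and 9 toward epithelium (8.91%). The shares were then 5.14% in fibers and 5.01% in epithelium over all genes, and 0.76% in fibers and 2.37% in epithelium over the silent list, so by this measure the share of solute carriers toward epithelium was above that of both. A median was also taken over ratios, bounds and genes without direction, the last set to 0. It was 0.00 over the 31 measured solute carriers (7 without direction) and 0.00 over all measured genes (773 without direction). Both medians fell among these set zeros, so their match carries no information. Over genes above both floors the median log2 ratio was -0.21 for the 12 solute carriers and -0.19 for all 2986 genes.

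**Figure D2:**
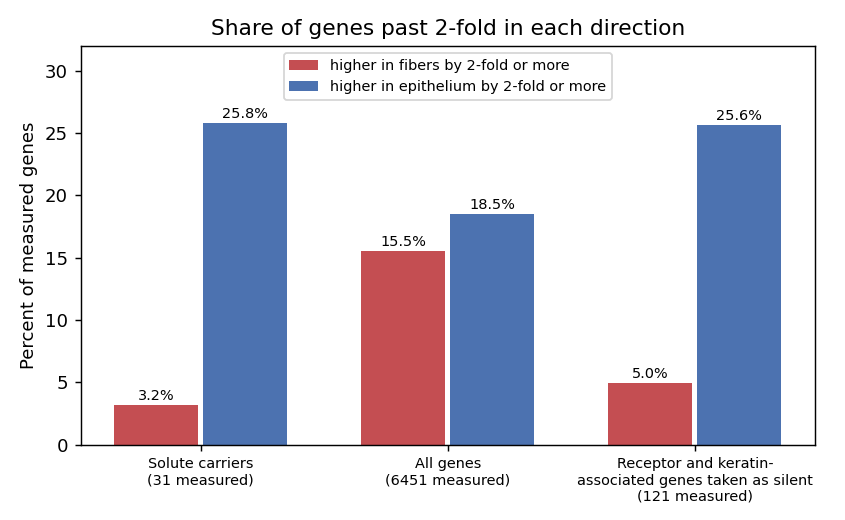
Percent of measured genes (y axis) past 2-fold toward fibers or toward epithelium, for 31 solute carriers, 6451 genes in all and 121 genes taken as silent. The solute carriers (3.23% in fibers and 25.8% in epithelium) and the silent genes (4.96% and 25.6%) show nearly the same split, and all genes a more even one. The silent genes shown are only those above a floor that was set from their own list.

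The calls that rest on signal from both arrays were Slc16a9 and Slc5a12. The monocarboxylate transporter gene Slc16a9, whose human counterpart is linked to carnitine transport, read 98.1 in fibers and 424 in epithelium (log2 ratio -2.11, 4.32-fold higher in epithelium). Its second probe read 74.1 in fibers and 204 in epithelium (-1.46), so both probes showed the higher level in epithelium. Slc5a12, a sodium-coupled cotransporter of lactate and other monocarboxylates, read 88.8 in fibers and 264 in epithelium (-1.57, 2.97-fold higher in epithelium). Its second probe was below both floors, at 0.097 in fibers and -3.13 in epithelium. These 2 genes were past 2-fold toward epithelium under all alternatives in which they were measured, 7 for Slc16a9 and 6 for Slc5a12. Several of these alternatives could not have ended the call. Both genes lay above all floors used, so raising the floors left their ratios unchanged. The scaling to housekeeping genes moves values only toward epithelium. For Slc5a12 the second brightest probe was not measured and gives no check.

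The remaining calls were bounds, from genes seen on 1 array. The 3 largest were Slc30a6, Slc26a9 and Slc9a3r2, and the single call toward fibers was Slc5a6. The sequences of 4 promoters are shown because they belong to the most different transporters in each direction: Slc16a9, Slc30a6 and Slc26a9 toward epithelium and Slc5a6 toward fibers. Each is the stretch of 250 bases before the annotated start in RefSeq, build GRCm38.p6, written 5′ to 3′ on the strand of the gene. Capitals mark TATAAA, the core of the TATA box, or CCAAT, the core of the box of that name, or GGGCGG, the core of the GC box, on either strand.
Slc16a9, chr10:70245026-70245275, plus strand: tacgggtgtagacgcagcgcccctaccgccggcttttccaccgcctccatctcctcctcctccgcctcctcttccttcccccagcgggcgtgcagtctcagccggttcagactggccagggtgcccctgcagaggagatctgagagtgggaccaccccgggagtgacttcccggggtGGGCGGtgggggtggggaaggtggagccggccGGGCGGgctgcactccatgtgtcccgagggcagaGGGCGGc
Slc30a6, chr17:74395358-74395607, plus strand: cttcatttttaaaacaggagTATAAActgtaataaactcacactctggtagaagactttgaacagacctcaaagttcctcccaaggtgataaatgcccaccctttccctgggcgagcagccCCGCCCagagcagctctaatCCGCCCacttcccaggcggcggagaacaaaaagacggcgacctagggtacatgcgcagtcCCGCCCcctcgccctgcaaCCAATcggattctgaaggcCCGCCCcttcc
Slc26a9, chr1:131743772-131744021, plus strand: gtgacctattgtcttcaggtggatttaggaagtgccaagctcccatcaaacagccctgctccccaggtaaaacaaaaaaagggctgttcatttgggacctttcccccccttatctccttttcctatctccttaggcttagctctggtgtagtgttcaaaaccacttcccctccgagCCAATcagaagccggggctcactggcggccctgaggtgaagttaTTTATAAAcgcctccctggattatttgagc
Slc5a6, chr5:31048563-31048812, minus strand: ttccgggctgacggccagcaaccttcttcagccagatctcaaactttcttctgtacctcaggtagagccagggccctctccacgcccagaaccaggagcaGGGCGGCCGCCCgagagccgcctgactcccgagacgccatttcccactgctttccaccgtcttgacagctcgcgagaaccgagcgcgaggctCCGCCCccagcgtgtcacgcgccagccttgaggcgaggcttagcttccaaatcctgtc

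The promoters differed in these letters. That of Slc16a9 held 3 GGGCGG matches with 70.4% G and C, and that of Slc5a6, the first of 2 starts in the table, also held 3 with 63.6% G and C. The Slc30a6 promoter held 4 GGGCGG matches, 1 CCAAT and 1 TATAAA far from the start. The Slc26a9 promoter held none of GGGCGG, 1 CCAAT, and TATAAA on both strands as overlapping matches near the start, with 50% G and C. The RefSeq promoter table used here held 78 of the 101 genes, with 97 starts. GGGCGG was in 47.4% of these 97 windows, against 32.7% of all 32851 windows, CCAAT in 39.2% against 33.8%, and TATAAA in 15.5% against 12.4%. These matches describe letters and not binding. Slc5a12 had no promoter entry used here.

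Among the acid-base and anion exchangers, which move bicarbonate, protons, chloride and sulfate, none of 7 measured genes reached 2-fold toward fibers and 2 did toward epithelium (28.6%). Over all measured genes the shares were 15.5% toward fibers and 18.5% toward epithelium. They are the background for every class and list below, each of which has few measured genes. Slc26a9, a chloride transporter of epithelia, read 1.09 in fibers and 136 in epithelium (at least 4.23-fold higher in epithelium). A second Slc26a9 probe read -3.88 in fibers and 109.7 in epithelium, in the same direction. Its other 2 probes were below both floors, and the mean of all 4 gave a bound of -0.89, short of 2-fold. Slc4a8, a sodium-driven chloride-bicarbonate exchanger, read 11.1 in fibers and 116 in epithelium (at least 3.60-fold higher in epithelium), but its next brightest probe read 34.2 in fibers and 25.8 in epithelium and had no direction. The direction of Slc4a8 therefore rests on 1 of its 4 probes.

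The other exchangers stayed under 2-fold. Slc9a5, a sodium-proton exchanger, read 86.6 in fibers and -7.06 in epithelium, a bound of 0.96 (1.94-fold) just short of 2-fold. It passed 2-fold with no floor, at 1.45, and had no direction with the scaling to housekeeping genes or with the floor at the 99th percentile. Slc4a3, an anion exchanger that trades chloride for bicarbonate, read 86.6 in fibers and 70.8 in epithelium, a log2 ratio of 0.29 that became -1.13 with the scaling to housekeeping genes. Slc4a2, another anion exchanger, had a bound of 0.09. The sulfate transporter gene Slc26a11 and the Golgi sodium-proton exchanger gene Slc9a8 were measured in fibers alone and had no direction. The electrogenic sodium-bicarbonate cotransporter gene Slc4a4 was below both floors, at 26.1 in fibers and 14.8 in epithelium, as was the red cell anion exchanger gene Slc4a1, at 2.11 in fibers and 3.90 in epithelium.

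Of the adapters, Slc9a3r2, a PDZ scaffold that binds sodium-proton exchanger 3, read 6.08 in fibers and 118 in epithelium, at least 3.66-fold higher in epithelium. Its second probe read 4.07 in fibers and 61.7 in epithelium (bound -0.94). Both probes were thus measured in epithelium alone. Slc9a3r1 and Slc4a1ap were below both floors.

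None of the 3 measured cation-chloride cotransporters, which couple chloride to sodium or potassium and set cell volume, reached 2-fold. Slc12a2, which brings sodium, potassium and chloride into cells, read 816 in fibers and 638 in epithelium (log2 ratio 0.36, and -1.07 when scaled to housekeeping genes). Its second probe read 180.1 in fibers and 178.9 in epithelium (0.01). The remaining Slc12a2 probes were below both floors. By its 2 brightest probes the gene was thus well above the floor on both arrays. The difference was small, and its direction depended on the scaling. Slc12a5, the potassium-chloride exporter best known from neurons, was at -0.88 in fibers and 60.5 in epithelium (bound -0.91). Slc12a3, the thiazide-sensitive cotransporter of the kidney, had a bound of 0.09.

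Of the exporters of calcium, 3 were above the floor on both arrays, with differences under 2-fold. Slc8a1, the sodium-calcium exchanger of heart and many other tissues, read 99.3 in fibers and 97.9 in epithelium (0.02). Slc24a2, a potassium-dependent exchanger of retina and brain, read 55.3 in fibers and 81.5 in epithelium (-0.56). The other probes of Slc8a1 and of Slc24a2 were below both floors. Slc24a5, the exchanger of pigment granules, read 63.3 in fibers and 68.0 in epithelium (-0.10). The Slc8a1 and Slc24a5 levels were thus nearly equal on the arrays, and with the scaling to housekeeping genes they stood at -1.40 and -1.53. Slc8a3, another sodium-calcium exchanger, read 9.08 in fibers and 68.9 in epithelium, at least 2.14-fold higher in epithelium. Its bound was -0.63 with a common floor for both arrays. The other Slc8a3 probes were below both floors. The gene was not measured with the floor at the 99th percentile or with the mean of all probes. Of the phosphate importers, Slc20a1 read 40.3 in fibers and 38.8 in epithelium and had no direction, and Slc20a2 was below both floors.

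**Figure D3:**
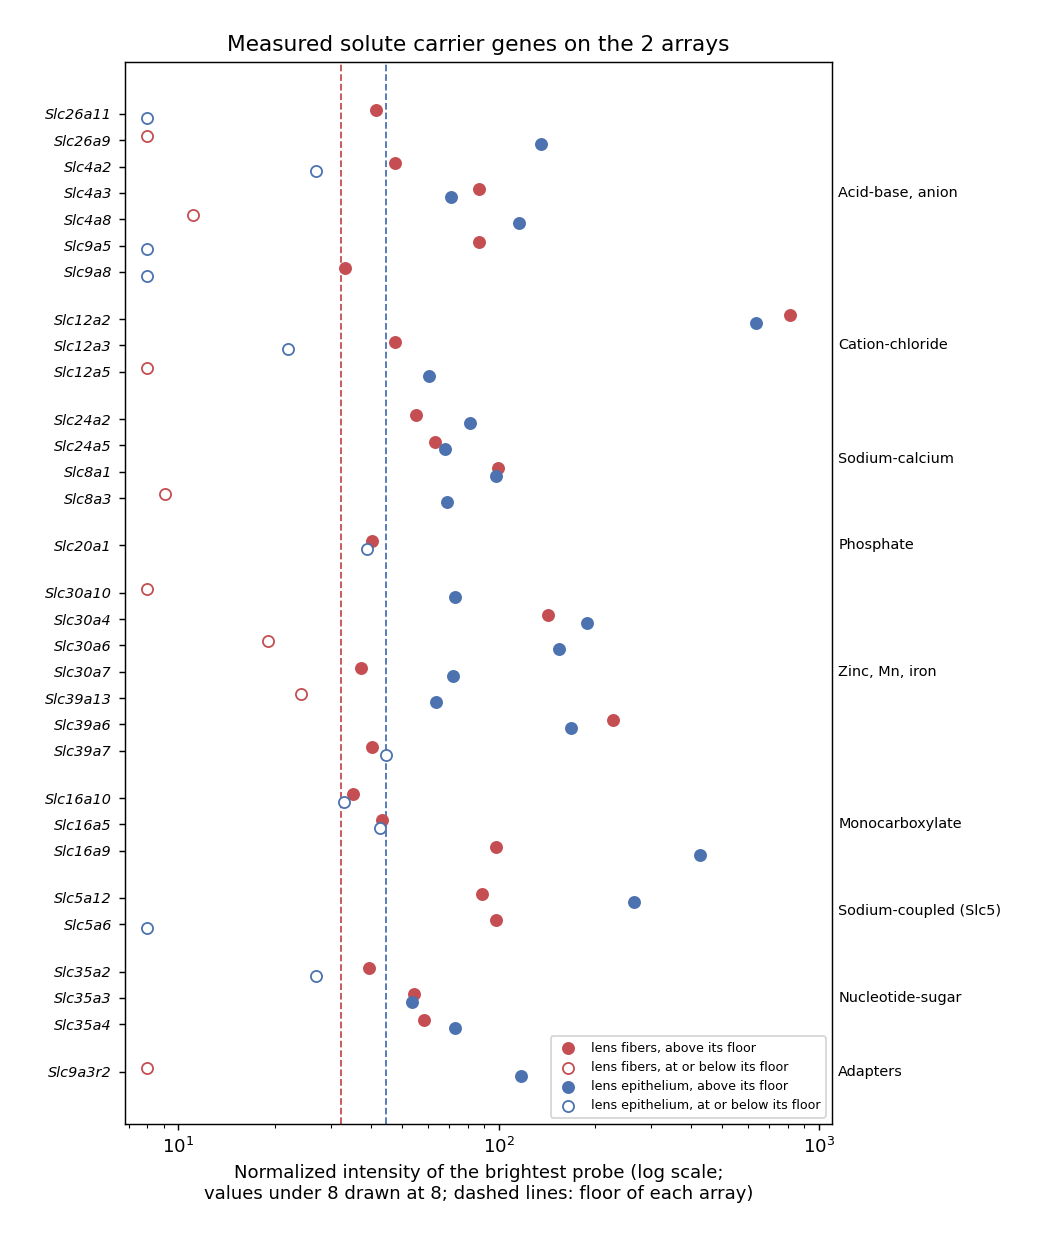
Normalized intensity of the brightest probe (x axis, log scale) of the 31 measured solute carrier genes (y axis, grouped by substrate class) in lens fibers and lens epithelium, 1 array each. Filled points lie above the floor of their array (32.1 in fibers and 44.6 in epithelium, dashed), open points do not, and values under 8 are drawn at 8. Slc16a9 and Slc5a12 are filled for both tissues and lie far apart, and Slc12a2, Slc39a6 and Slc8a1 lie close together, as drawn without scaling to housekeeping genes.

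Of 10 Slc30 genes, which export zinc or manganese from the cytosol, 4 were measured. Of these, 2 were measured in epithelium alone, so the size of their bounds depended on the fibers floor. With no floor and an offset of 50, their log2 ratios were -1.57 for Slc30a6 and -1.30 for Slc30a10. Slc30a6, a zinc carrier of the Golgi, read 19.0 in fibers and 155 in epithelium, at least 4.82-fold higher in epithelium, from its only probe. Slc30a10, a manganese exporter, read 0.097 in fibers and 73.0 in epithelium, at least 2.27-fold higher in epithelium. Its other probes were below both floors. With a common floor for both arrays its bound was -0.71, short of 2-fold, and with the floor at the 99th percentile it was not measured.

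Slc30a7, a zinc carrier of the Golgi, read 37.1 in fibers and 71.9 in epithelium (-0.95), with a second probe at 42.4 in fibers and 63.8 in epithelium (-0.59). Slc30a4, a zinc carrier of endosomes and milk-secreting cells, read 142 in fibers and 189 in epithelium (-0.41). Slc30a1, the zinc exporter of the plasma membrane, lay exactly at the floor in fibers (32.1) and read 19.0 in epithelium, so it did not count as measured.

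Of 13 Slc39 genes, which import zinc into the cytosol, 3 were measured. Slc39a6, a zinc importer of the plasma membrane, read 228.5 in fibers and 168 in epithelium, a log2 ratio of 0.44 that was -0.98 when scaled to housekeeping genes. Slc39a13, a zinc carrier of the early secretory pathway, read 24.1 in fibers and 63.8 in epithelium, a bound of -0.99 (1.98-fold) just short of 2-fold. The bound was -1 with values as deposited and -0.52 with a common floor for both arrays. The other Slc39a13 probes were below both floors, and with the mean of all probes the gene was not measured. Slc39a7, which releases zinc from the endoplasmic reticulum, was measured in fibers alone by all 3 of its probes, with no direction. Its brightest probe read 40.3 in fibers and lay exactly at the floor in epithelium (44.6). The other 10 Slc39 genes were below both floors, as was Slc40a1, the iron exporter ferroportin, at 5.08 in fibers and 2.88 in epithelium.

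Beyond Slc16a9, the measured monocarboxylate family members were Slc16a5 and Slc16a10, a carrier of aromatic amino acids, both measured in fibers alone and without direction. Slc16a5 read 43.3 in fibers and 42.7 in epithelium, and Slc16a10 read 35.2 in fibers and 32.8 in epithelium. The lactate carrier genes Slc16a1 (-4.91 in fibers and 21.0 in epithelium) and Slc16a3 (27.1 and 23.0) were below both floors. Slc16a12, a creatine carrier mutated in a human form of cataract, read 10.1 in fibers and 1.90 in epithelium, from 1 probe, below both floors.

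The Slc5 family gave the single call toward fibers. Slc5a6, the sodium-dependent carrier of biotin and pantothenate, read 98.1 in fibers and -1.15 in epithelium, at least 2.20-fold higher in fibers, from its only probe. Its direction was lost both with the scaling to housekeeping genes and with the floor at the 99th percentile of the silent probes. Slc5a3, the importer of the osmolyte myo-inositol, was at -3.88 in fibers and -9.06 in epithelium, below both floors, like 10 others of the 13 Slc5 genes.

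Of the nucleotide-sugar carriers, 2 were measured in both tissues, with small differences that became -1.40 for Slc35a3 and -1.75 for Slc35a4 with the scaling to housekeeping genes. Slc35a3, which carries UDP-N-acetylglucosamine, read 54.4 in fibers and 53.6 in epithelium (0.02). Slc35a4 read 58.3 in fibers and 73.0 in epithelium (-0.32). Slc35a2, the UDP-galactose carrier, was measured in fibers alone (39.3 in fibers and 26.9 in epithelium), with no direction. Slc35a1, the carrier of CMP-sialic acid, was below both floors, and without that scaling no gene of the class reached 2-fold.

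Genes that work with these carriers were taken from fixed lists. Of 22 further Slc35 genes outside the Slc35a branch, 10 were measured, of which none reached 2-fold toward fibers and 2 did toward epithelium (20%, against 18.5% of all measured genes). The 2 were Slc35c1, the GDP-fucose carrier, at 38.2 in fibers and 82.6 in epithelium (2.16-fold), and Slc35f3, linked to thiamine transport in human, at 0.097 in fibers and 101.8 in epithelium (at least 3.17-fold). Slc35g3 (-0.93) and Slc35f5 (bound 0.92) stayed under 2-fold.

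Of 16 nucleotide-sugar synthesis genes with a probe, 5 were measured and 1 was past 2-fold, toward fibers (20%, against 15.5% of all measured genes). That gene was Cmas, which activates sialic acid, at 195 in fibers and 48.8 in epithelium, well past 2-fold. Ugp2, which makes UDP-glucose, had a log2 ratio of 0.67 and Pgm1, a phosphoglucomutase, of 0.62. The other measured members had no direction. The synthesis genes with a direction thus lay toward fibers, 3 of 3, and 10 of the 12 measured housekeeping genes lay the same way. Of all measured genes with a direction, 2804 lay toward fibers and 2873 toward epithelium.

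Of 16 metal-handling genes, 8 were measured, with 1 past 2-fold toward fibers and 1 toward epithelium. Fth1, the ferritin heavy chain that stores iron, read 1158 in fibers and 428 in epithelium (1.44, 2.71-fold higher in fibers). Heph, the iron oxidase hephaestin, read 0.097 in fibers and 66.0 in epithelium (at least 2.05-fold higher in epithelium). Ireb2, an iron-sensing regulator of messenger RNAs, stood at 0.99 and Slc11a2, a ferrous iron importer, at -0.87. No metallothionein was above either floor.

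Of 15 carbonic anhydrases with a probe, which make the bicarbonate and protons that exchangers move, 3 were measured. Car14, on the cell surface, read 103 in fibers and 3.90 in epithelium (at least 2.31-fold higher in fibers), Car5b, in mitochondria, read -4.91 in fibers and 80.4 in epithelium (at least 2.50-fold higher in epithelium), and Car9 stood at 0.33. Of 5 kinases that regulate the cation-chloride cotransporters, 4 were measured. Stk39 read 96.0 in fibers and 32.8 in epithelium (at least 2.15-fold higher in fibers), while its upstream kinase Wnk1 (0.37), Oxsr1 (0.06) and Wnk4 (-0.11) stayed under 2-fold. Emb, a chaperone of monocarboxylate transporters, had a bound of 0.36 and its relative Bsg was below both floors, as were the 3 sodium-proton exchanger cofactors.

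Marker lists of other cell types differed in direction. The periocular mesenchyme list, with 1 of 7 genes measured, summed to 64.9 in fibers and 259.98 in epithelium, almost all of it Tfap2b, while Foxc2 and Col1a1 were at or below 0 on an array. The retina list, with 1 of 4 measured, summed to 143 in fibers and 1258 in epithelium, almost all of it Sfrp2, with Six6 and Lhx2 at or below 0 on an array. The pigment cell list, which holds Slc24a5, had 3 of 8 measured and summed to 207 in fibers and 303 in epithelium. The erythroid list, which holds Slc4a1, had 2 of 7 measured, on the side of fibers, and summed to 219 in fibers and 146 in epithelium, with Hba-x and Alas2 at or below 0 on an array. The endothelium list, with 1 of 4 measured, ran toward fibers (112 in fibers and 35.7 in epithelium), with Pecam1 at or below 0 on an array. The surface ectoderm list, with 1 of 4 measured, was about level (92.3 in fibers and 96.7 in epithelium). The part of these cells in the solute carrier values was not tested.

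The calls depended on the floor and the scaling. With the floor at the 99th percentile of the silent probes (80.7 in fibers and 111 in epithelium), 13 of the 101 genes were measured, and Slc16a9 and Slc5a12 were the 2 past 2-fold. The bounds of Slc30a6, Slc26a9, Slc9a3r2 and Slc4a8 then stood at -0.94, -0.75, -0.54 and -0.52. Scaling the fibers array to the housekeeping list moved the median of all measured genes to -1.10 and that of the solute carriers to -1.40.

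**Figure D4:**
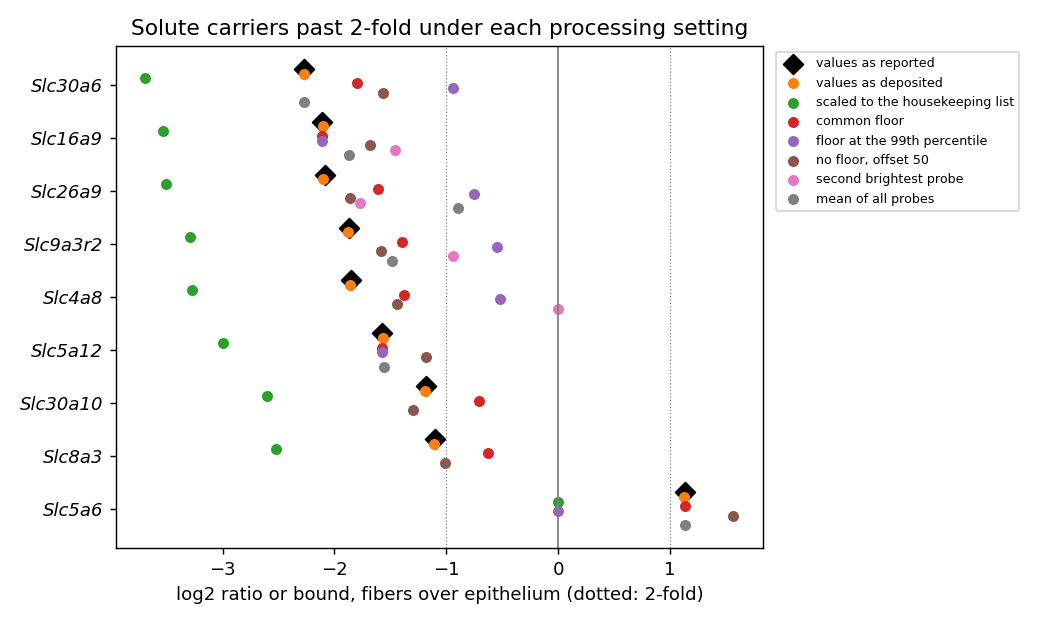
The log2 ratio or bound of fibers over epithelium (x axis) for the 9 solute carrier genes past 2-fold (y axis), as reported (diamonds) and under 7 other processing settings (points; none where a gene was not measured). The Slc16a9 and Slc5a12 points all lie beyond 2-fold toward epithelium, Slc4a8 with its second brightest probe is at 0, and Slc5a6 is at 0 under 2 settings, one of them the scaling to housekeeping genes.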

How the data were processed

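The authors deposited linear intensities of 45281 probes for each array. Every deposited intensity was a whole number from -16 upward. Values of 0 or less made up 38.7% in fibers and 38.0% in epithelium, which shows that background was taken off before deposit. The method, the software and any scaling between arrays were not given in the sources used here. Per the labels' protocols, total RNA was biotin-labelled for Illumina arrays.

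Quantile normalization was applied to the linear values, with tied values sharing a mean. The platform annotation gave 34885 probes 1 gene symbol, 18 several and 10378 none; symbols were updated through gene IDs in the GRCm38.p6 RefSeq table, which held 34807 of those probes and all 101 solute carriers. The brightest probe over both arrays stood for a gene. Of the 101 genes, 53 had several probes, and 9 had 2 or more above a floor. Floors, bounds and the 2-fold threshold are as given above. Quantile normalization hides differences in total RNA.

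With 1 array per group no test was made, and precision is limited by the number of arrays. All members above a floor are named, with up to 4 genes of each related list. Members and lists were chosen with earlier results of these data known. In all, 7 alternatives were run. The calling steps were tested on simulated data, with known changes planted in bright probes only. That simulation did not cover weak signals, bounds near the floor or the choice of the brightest probe, on which most calls rest. Python 3.11.15, numpy 2.4.6 and pandas 2.3.3 were used.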

Additional observations from a re-analysis of the deposited data

How the results depend on the processing

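No paired analysis was possible because each group has 1 array. A count is said to move when it differs by over 1.5-fold, and a log2 value when it shifts by over 1.5-fold. None of the 9 solute carriers past 2-fold changed sign under any of the 7 alternatives. Slc4a8 had no direction under 1 of them and Slc5a6 under 2. The lack of a sign change was largely fixed in advance. A bound that loses its direction is set to 0, so a new floor cannot reverse it. The scaling to housekeeping genes moves values only toward epithelium, where 8 of the 9 already lay. The alternatives were not run for the related genes. The cause of a move was not tested unless stated. With values as deposited, 1 solute carrier passed 2-fold toward fibers and 9 toward epithelium, and no count moved. Scaled to the housekeeping list, 0 were higher in fibers and 19 in epithelium, with a median of -1.40. The counts higher in epithelium were then 2 cation-chloride, 4 sodium-calcium, 5 metal and 2 nucleotide-sugar genes, and 0 Slc5 genes were higher in fibers. All genes moved with them, to 1.80% higher in fibers and 51.5% in epithelium. With a common floor, 24 genes were measured, and 0 sodium-calcium and 1 metal gene were higher in epithelium. With the floor at the 99th percentile, 0 were higher in fibers and 2 in epithelium, with 0 acid-base, sodium-calcium, metal and adapter genes in epithelium and 0 Slc5 genes in fibers. By construction this setting measures fewer genes, 13. With no floor and an offset of 50, 2 were higher in fibers, 1 of them an acid-base gene, 9 were higher in epithelium, 1 of them a cation-chloride gene, and all genes stood at 5.14% and 5.01%. The second brightest probe measured 9 genes, 0 higher in fibers and 2 in epithelium, with 1 acid-base gene and 0 sodium-calcium, metal, Slc5 and adapter genes in epithelium and 0 Slc5 genes in fibers. With the mean of all probes, 4 were higher in epithelium, with 0 acid-base, 0 sodium-calcium and 1 metal gene. Signal near the floor limits 18 of the 31 measured genes, which were not above the 99th percentile of the silent probes on either array.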
